A study of Mus musculus with 8 samples.

Results

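Notch receptors, ligands and targets were read in whole pancreas of WT mice and of Glis3KO2 mice, a Glis3 knockout genotype. Notch1, Notch2, Notch3 and Notch4 are the receptors, Dll1, Dll4, Jag1 and Jag2 are ligands, and Hes1 and Hey1 are genes that the pathway switches on. Members were the non-control probes that the array design names for these 10 genes. They are 10 of 27962 distinct gene names on the array and comprised 14 of its 41174 distinct probes, 7 for the receptors, 5 for the ligands and 2 for the targets. The samples were 4 WT and 4 Glis3KO2 pancreases from C57BL/6 mice 1 week of age, left with their own mothers, with 1 single-colour Agilent array each. The labels do not give the deleted part of the gene. Glis3 is a zinc finger transcription factor, and the series is about its role in how insulin-secreting beta cells form and mature.

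Notch signalling passes between touching cells. A Delta or Jagged ligand on one cell pulls on a Notch receptor on its neighbour, gamma-secretase then frees the receptor's intracellular part, and that fragment joins the DNA-binding protein Rbpj to activate Hes and Hey genes. In the embryonic pancreas Hes1 holds back Neurog3, the factor that starts endocrine cell formation, and in older tissue the pathway is known from ducts, blood vessels and the mural cells around vessels.

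What the array reads is a 60-base stretch of each transcript, and the Hes1 result rests on a single stretch, so it is shown with the stretches of Notch2 and Jag1 that have a further probe elsewhere in the same gene to be set beside them. They are printed 5′ to 3′ as the array files give them, in lower case throughout because no part is singled out.
Hes1: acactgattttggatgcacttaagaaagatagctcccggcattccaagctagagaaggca
Notch2 probe 2: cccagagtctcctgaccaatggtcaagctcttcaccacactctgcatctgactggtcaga
Jag1 probe 2: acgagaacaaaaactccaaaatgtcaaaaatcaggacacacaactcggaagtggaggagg
The Hes1 probe lies on the plus strand at chr16:29738743-29739038 (positions here are those of the array design, in mouse build mm7). Its ends are 296 bases apart although the probe has 60 bases, so the design places it across a gap of 236 bases. Notch2 probe 2 lies at chr3:98018506-98018565 on the plus strand, and Notch2 probes 3 and 1 begin 1638 and 2709 bases further along. Jag1 probe 2 lies at chr2:136824059-136824118 on the minus strand, 1509 bases from Jag1 probe 1. The start positions of the 2 Notch1 probes lie 58 bases apart. No exon annotation of build mm7 was used here, so exon or intron is not given for any probe.

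Facts of the whole series bear on every value. An array had 76.1% to 86.5% of its probes well above background, while the 75th percentile of signal, to which each array was scaled, was 460 to 694. Litters are not named by the labels, and the p-values here therefore cover the spread among these 8 samples alone. Each genotype had a slide to itself, which means that slide and genotype cannot be told apart. Relative to that percentile, control RNA spiked into every sample read lower in Glis3KO2 by 9 of its 10 probes (median log2 difference -0.28). No alternative here scaled the arrays to this control RNA. Xist, the RNA that coats an inactive X, was above the 75th percentile on 1 WT array (replicate 4) and 3 Glis3KO2 arrays (replicates 1, 3 and 4). The labels do not give the sex of each animal, and sex was not part of the fit. Glis3KO2 replicates 3 and 4 stood apart on the first principal component, at 39.8 and 59.0 against -26.0 to 0.46 for the other arrays. The Glis3 probe was well above background on 3 WT and 0 Glis3KO2 arrays and was too dim to be tested, and whether it lies in the deleted part is not given. The tissue carried its defining markers: all 8 acinar markers were tested and did not pass the threshold, while 5 of 8 beta cell markers (Ins1, Ins2, Slc2a2, Nkx6-1 and G6pc2) fell in Glis3KO2. In whole tissue, fewer cells of a type and less RNA per cell cannot be told apart.

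No Notch receptor, ligand or target passed the test between genotypes. All 14 probes were well above background on all 8 arrays, and all were tested in the fit over the whole array. None rose and none fell (limma, adjusted p under 0.05 over all tested probes), and 0 of the 14 had an unadjusted p under 0.05. Over all tested probes 0.256% were called, 0.0812% as higher and 0.174% as lower, and 8.97% had an unadjusted p under 0.05, so a count of 0 among 14 is near the background. Of the 14 log2 differences 10 were negative and 4 positive (8 negative when arrays were scaled to the median), with a median of -0.07, against 52.0% negative and a median of -0.009 over all tested probes. The median absolute log2 difference was 0.11 for these probes and 0.13 for all tested probes. Groups did not overlap for 1 of the 14 probes, that of Notch4, against 5.20% of all tested probes (3.35% lower and 1.86% higher in Glis3KO2). The sign of 8 of the 14 differences turned under at least 1 alternative processing or with arrays left out, and it held under all 18 alternatives for Notch1 (both probes), Notch2 probe 3, Notch4, Jag1 probe 1 and Hey1. Some of the 18 could not turn a sign. Other filters, the deposited table, a block for the replicate number and other eBayes settings leave the difference of each member probe unchanged.

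**Figure D1:**
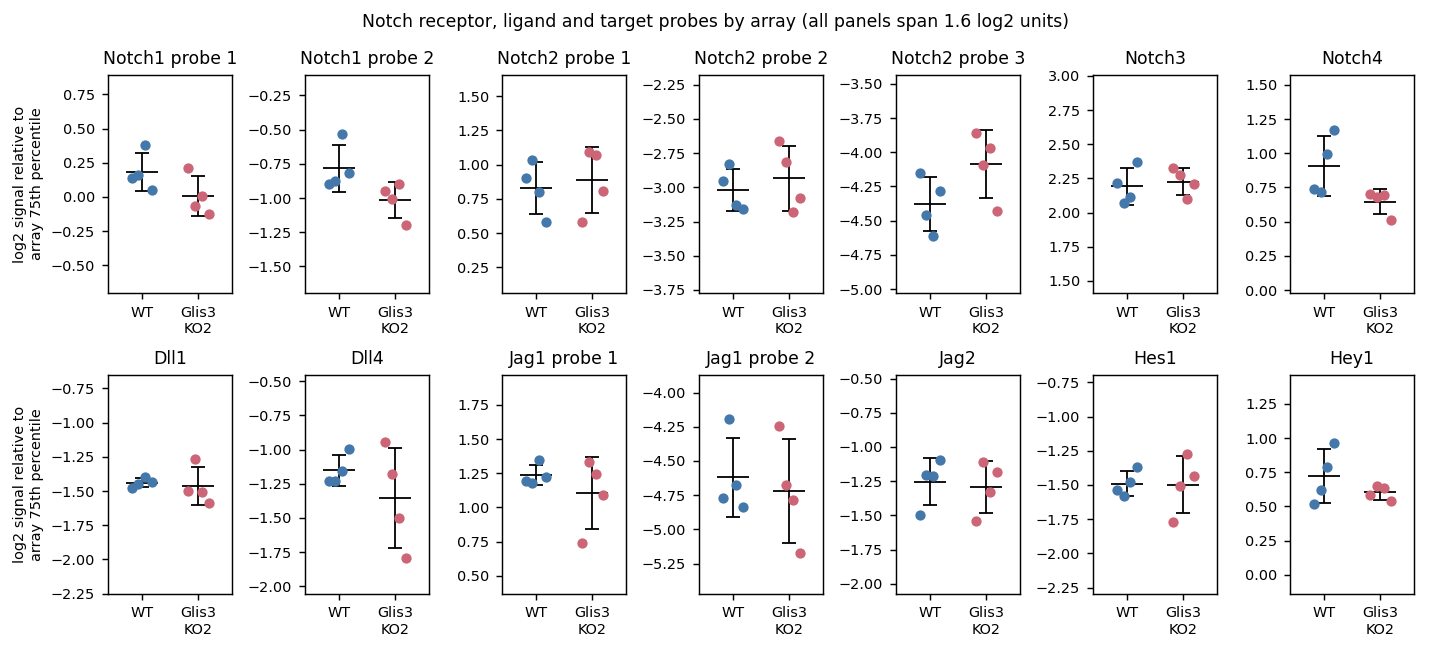
Scaled log2 signal (vertical axis, 0 being the 75th percentile of its array) for each of the 14 probes, with 4 WT arrays in blue and 4 Glis3KO2 arrays in red. Black bars give mean and SD (n = 4), and the groups overlap in every panel except Notch4.

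Among the receptors, Notch1, which acts in progenitors, endothelium and many other cells, had log2 values by probe 1 (chr2:26466563-26466621) of 0.14, 0.16, 0.38 and 0.05 on WT replicates 1 to 4, and of 0.21, -0.06, 0.00457 and -0.12 on Glis3KO2 replicates 1 to 4. All log2 values here are relative to the array's 75th percentile. Replicates 2, 3 and 4 of Glis3KO2 were below every WT array, but replicate 1 was above 3 of them. The log2 difference of Glis3KO2 minus WT was -0.18 (SE 0.12, 95% interval -0.44 to 0.09, limma adjusted p = 0.707). Probe 1 is printed 10 times on each array, and the SD between its spots was 0.044 to 0.082, below the SD between arrays of 1 genotype, 0.14 in both. By probe 2 of Notch1 the log2 difference was -0.23 (SE 0.12, limma adjusted p = 0.628). On that probe WT spanned -0.90 to -0.53 and Glis3KO2 -1.20 to -0.90, and the groups overlapped only where the highest Glis3KO2 array met the lowest WT array.

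Notch2, a receptor of ducts and bile ducts as well as other tissues, was read by 3 probes. Probe 1 gave log2 values of 0.91, 1.03, 0.80 and 0.58 on the WT arrays and 0.58, 1.09, 1.07 and 0.81 on the Glis3KO2 arrays. Low and high arrays occurred in both genotypes. Its log2 difference was 0.06 (SE 0.15, 95% interval -0.28 to 0.40, limma adjusted p = 0.947). Probe 2 read -2.96, -2.83, -3.13 and -3.15 in WT and -2.66, -2.81, -3.18 and -3.08 in Glis3KO2, and probe 3 read -4.15, -4.46, -4.61 and -4.29 against -3.86, -4.09, -3.97 and -4.43. On probe 3, Glis3KO2 replicates 1 to 3 were above every WT array and replicate 4 lay among them. Probes 2 and 3 had log2 differences of 0.08 (SE 0.14) and 0.29 (SE 0.15), neither past the threshold (adjusted p = 0.912 and 0.633). All 3 probes gave a positive difference with an interval that spans 0. Probe 1 turned negative under 3 of the 18 alternatives (lowest -0.03, without WT replicate 4), and probe 2 under 2 of them.

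Notch3 is the receptor known from mural cells, the pericytes and smooth muscle of vessels. Its log2 values (chr17:30311822-30311881) were 2.22, 2.07, 2.12 and 2.37 in WT and 2.33, 2.28, 2.10 and 2.21 in Glis3KO2. It spanned only 0.30 log2 units over the 8 arrays, the narrowest of the 14 probes, and the genotypes overlapped fully. Glis3KO2 minus WT was 0.04 on the log2 scale (SE 0.11, 95% interval -0.20 to 0.28, limma adjusted p = 0.955). The 8 mural markers had 0 members past the threshold and a median log2 difference of 0.02. Their mean level relative to WT was -0.22 to 0.18 on the WT arrays and -0.25 to 0.17 on the Glis3KO2 arrays.

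Notch4, a receptor known mainly from endothelial cells, had the largest negative difference of the 14 probes. Its log2 values (chr17:32669395-32669454) were 0.74, 0.71, 0.99 and 1.17 in WT and 0.70, 0.68, 0.70 and 0.51 in Glis3KO2. All Glis3KO2 arrays were below all WT arrays, but WT replicate 2 lay next to Glis3KO2 replicates 1 and 3. WT averaged 0.91 ± 0.22 and Glis3KO2 averaged 0.65 ± 0.09 (SD, n = 4 each). The log2 difference of -0.26 (SE 0.13, 95% interval -0.55 to 0.03, limma adjusted p = 0.599) did not pass the threshold. Of all tested probes, 11.7% had a smaller p.

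Among the ligands, Dll1, a Delta ligand of endocrine progenitors and other cells, was the most even between arrays of WT. Its log2 values (chr17:13604553-13604612) were -1.47, -1.45, -1.40 and -1.43 in WT and -1.50, -1.26, -1.50 and -1.58 in Glis3KO2. The Glis3KO2 arrays lay on both sides of the WT values. Glis3KO2 minus WT was -0.02 on the log2 scale (SE 0.10, 95% interval -0.25 to 0.20, limma adjusted p = 0.970). The probe has 10 spots per array, of which 8 to 10 were kept, and the SD between spots was 0.037 to 0.093. The SD between WT arrays, 0.031, was below that range, and the SD between Glis3KO2 arrays, 0.14, was above it.

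Dll4, the Delta ligand of endothelial cells that guides vessel sprouting, varied most among the Glis3KO2 arrays of the 10 genes by their brightest probes. Its log2 values (chr2:119075892-119075951) were -1.23, -1.23, -1.16 and -1.0 in WT and -0.95, -1.18, -1.50 and -1.79 in Glis3KO2. Replicate 1 of Glis3KO2 was above every WT array, and replicates 3 and 4 were below every one. The log2 difference was -0.20 (SE 0.18, 95% interval -0.60 to 0.20, limma adjusted p = 0.789). It was -0.34 without Glis3KO2 replicate 1, -0.06 without replicate 4, and 0.09 without replicates 3 and 4.

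Jag1, a Jagged ligand of ducts, vessels and mesenchyme, had log2 values by probe 1 (chr2:136822550-136822609) of 1.19, 1.18, 1.34 and 1.22 in WT and 0.74, 1.33, 1.25 and 1.09 in Glis3KO2. Glis3KO2 replicate 1 was the lowest, 0.49 below the WT mean, and the other Glis3KO2 arrays lay between -0.14 and 0.10 of that mean. The log2 difference was -0.13 (SE 0.14, 95% interval -0.44 to 0.18, limma adjusted p = 0.835). Without Glis3KO2 replicate 1 it was -0.01. Probe 2 was dim, with signals of 15.2 to 25.2 units, and its log2 difference of -0.10 (SE 0.21, limma adjusted p = 0.933) turned to 0.16 without Glis3KO2 replicates 3 and 4.

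Jag2, the other Jagged ligand, had log2 values (chr12_random:2920858-2920917) of -1.50, -1.21, -1.21 and -1.10 in WT and -1.54, -1.11, -1.33 and -1.18 in Glis3KO2. Each genotype had 1 low array, replicate 1 in both, and the other values overlapped. Between genotypes the log2 difference was -0.04 (SE 0.13, 95% interval -0.34 to 0.26, limma adjusted p = 0.965), and it was 0.05 without Glis3KO2 replicate 1.

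The targets did not differ beyond the spread either. Hes1, the repressor that Notch induces, had log2 values of -1.54, -1.58, -1.48 and -1.37 in WT and -1.77, -1.51, -1.28 and -1.44 in Glis3KO2. The lowest and the highest of the 8 values were both Glis3KO2 arrays. WT averaged -1.49 ± 0.09 and Glis3KO2 averaged -1.50 ± 0.21 (SD, n = 4 each). The log2 difference was -0.0075 (SE 0.12, 95% interval -0.29 to 0.27, limma adjusted p = 0.994), the smallest in size of the 14. Its sign turned when arrays were scaled to the median (0.019) or weighted (0.047), and without Glis3KO2 replicate 1 (0.08) or WT replicate 4.

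Hey1, a related repressor that is known from endothelial cells and arteries, had log2 values (chr3:8669867-8669926) of 0.52, 0.62, 0.79 and 0.96 in WT and 0.59, 0.65, 0.63 and 0.54 in Glis3KO2. All 4 Glis3KO2 arrays lay between WT replicates 1 and 3. Between genotypes the log2 difference was -0.12 (SE 0.12, 95% interval -0.38 to 0.14, limma adjusted p = 0.818). With 1 array left out it was -0.19 (without WT replicate 1) to -0.04 (without WT replicate 4).

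**Figure D2:**
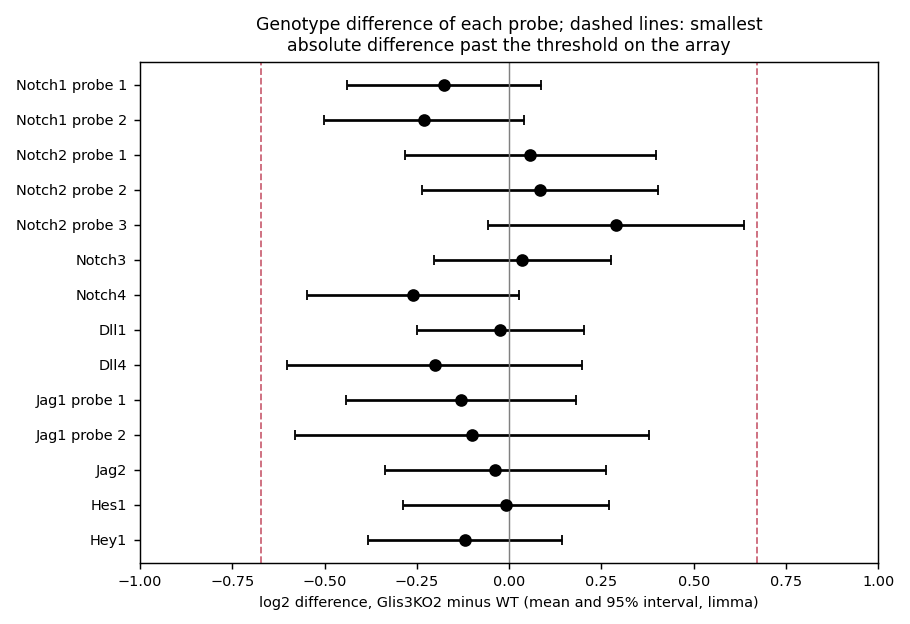
Log2 difference of Glis3KO2 minus WT (horizontal axis) for each of the 14 probes, as mean and 95% interval from limma. Every interval spans 0 and lies inside the dashed lines at ±0.67, the smallest absolute difference past the threshold on the array.

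The intervals give the range of differences that the spread among these arrays allows. They do not cover a shift between the slides, which cannot be told apart from genotype. For the 14 probes the 95% intervals reached at most a 1.52-fold decrease (Dll4) and at most a 1.55-fold increase (Notch2 probe 3). For Hes1 they reached a 1.22-fold decrease and a 1.21-fold increase, for Notch3 1.15-fold and 1.21-fold, and for Dll1 1.19-fold and 1.15-fold. Differences within these intervals could not be told from 0 with 4 arrays per genotype. The smallest absolute log2 difference that passed the threshold anywhere on the array was 0.67.

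By the brightest probe of each gene, Glis3KO2 replicate 1 had 7 of 10 members below the WT mean (median -0.17), replicate 2 had 5 (median 0.03), replicate 3 had 7 (median -0.08) and replicate 4 had 7 (median -0.14). WT replicates 1 and 2 each had 8 of 10 below that mean (medians -0.046 and -0.065). WT replicates 3 and 4 each had 3 (medians 0.039 and 0.138). The Glis3KO2 counts lay within the WT range, but the medians of Glis3KO2 replicates 1, 3 and 4 were below every WT median. Glis3KO2 replicate 1 was the lowest of all 8 arrays for Notch2, Jag1, Jag2 and Hes1, and replicate 4 was the lowest for Notch1, Notch4, Dll1 and Dll4. For Notch2, WT replicate 4 was nearly equal to Glis3KO2 replicate 1 (both 0.58). The dimmer probes differed: Glis3KO2 replicate 1 was the highest of 8 on Notch2 probes 2 and 3. On Jag1 probe 2 it was 0.37 above the WT mean. No Glis3KO2 array was low for all members.

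**Figure D3:**
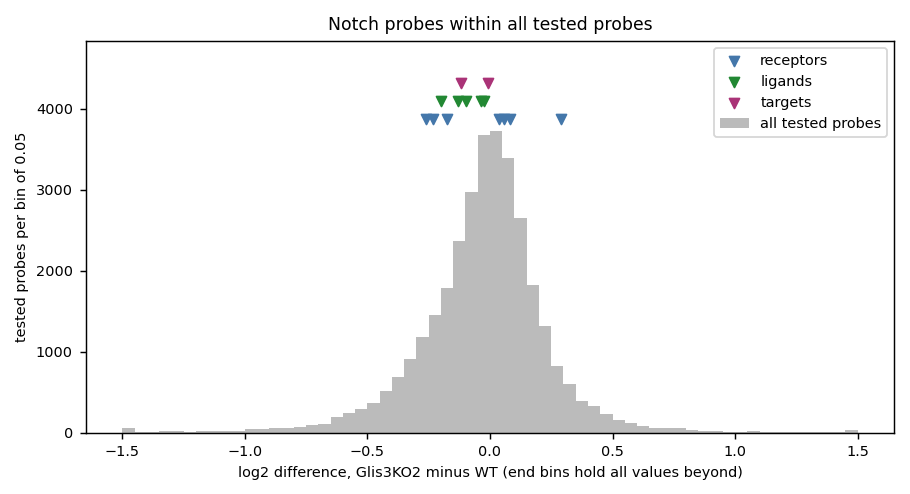
Number of tested probes per bin of 0.05 (vertical axis) by log2 difference of Glis3KO2 minus WT (horizontal axis) for all 33239 tested probes in grey, with triangles for the 14 Notch probes by role. The triangles lie between -0.26 and 0.29, within the body of the distribution, and the outermost bins also hold all probes beyond the axis.

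Members known from endothelium were set beside markers of that cell type on each array. The 10 endothelial markers were all lower in Glis3KO2, with log2 differences of -0.44 to -0.09 and a median of -0.20, and 0 of 10 passed the threshold (limma, 2 with an unadjusted p under 0.05). Relative to the WT mean their mean level was -0.18, 0.001, -0.32 and -0.37 on Glis3KO2 replicates 1 to 4 and -0.12 to 0.16 on the WT arrays. On the same Glis3KO2 arrays Dll4 stood at 0.21, -0.03, -0.34 and -0.64 relative to its WT mean, and Notch4 at -0.21, -0.23, -0.21 and -0.40. Hey1 stood at -0.13, -0.07, -0.09 and -0.19, and Notch1 by probe 1 at 0.02, -0.25, -0.18 and -0.31. Dll4 and the endothelial list were both lowest on replicates 3 and 4, whereas Notch4 was also low on replicates 1 and 2. The lowest Glis3KO2 arrays were replicates 4 and 1 for Hey1, and replicates 4 and 2 for Notch1. Of the Glis3KO2 arrays, replicates 3 and 4 were also lowest for the mural, nerve and glia, leukocyte, beta cell and other islet lists. They were highest for the duct and dividing cell lists, and neither for the mesenchymal and acinar lists. On the WT arrays replicate 4 was the highest for the list, for Notch4, for Dll4 and for Hey1. WT replicate 4 was also the highest WT array for Notch3, Jag2 and Hes1 and for the mural, mesenchymal and nerve lists. For Notch1 and Notch2 it was the lowest. The part of endothelial RNA in the values of Notch1, Notch4, Dll4 and Hey1 was not tested. The 9 duct markers, which include Sox9, had 0 members past the threshold and a median log2 difference of 0.08, with levels of -0.10 to 0.11 on the WT arrays and -0.01 to 0.26 on the Glis3KO2 arrays. The other lists also had no member past the threshold apart from islet genes, where 1 of 5 non-beta markers, Ppy, fell. Of 6 markers of dividing cells 6 were higher, and of 6 nerve and glia markers 6 were lower, with median log2 differences of 0.42 and -0.25. An unadjusted p under 0.05 (limma) was found for 5 of these dividing cell markers and 1 of these nerve and glia markers. Over all tested probes 52.0% were lower and 8.97% had an unadjusted p under 0.05. Of 7 mesenchymal markers 7 were higher (median 0.15), and 5 of 7 leukocyte markers were lower (median -0.02).

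**Figure D4:**
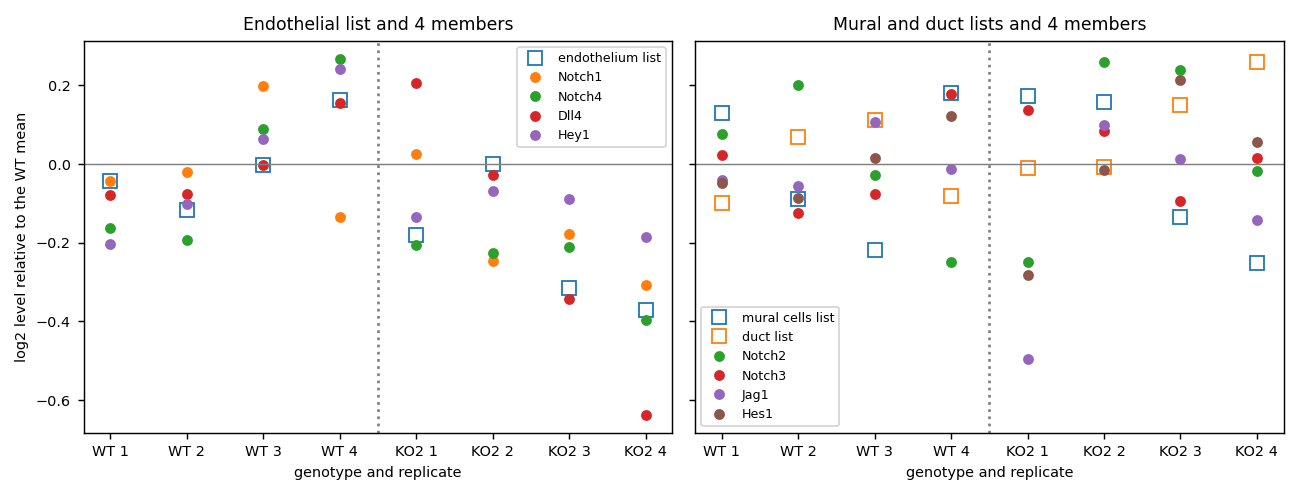
Log2 level relative to the WT mean (vertical axis) on each array (horizontal axis), with open squares for the mean of a marker list and filled circles for single genes. In the left panel the endothelial list and Dll4 are lowest on Glis3KO2 replicates 3 and 4, and in the right panel Jag1 is lowest on Glis3KO2 replicate 1.

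The profiles most like those of Notch4, Dll4 and Notch1 were taken from 17557 other genes, by the smallest root mean square distance over the 8 arrays after each gene was set to its own mean. For Notch4 they were Bbs2, a cilium gene (distance 0.048 log2 units), Lama4, a laminin of vessel walls (0.055), and 9430028L06Rik (0.056). For Dll4 they were Vegfb, a growth factor of the VEGF family (0.057), Stat2, a factor of interferon signalling (0.060), and Hmgb2l1 (0.063). For Notch1 they were Ccdc186 (0.045), 6430510M02Rik (0.046) and Stau2, an RNA-binding protein (0.047). The members' own root mean square spread was 0.19, 0.26 and 0.15.

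The rest of the pathway also showed no difference past the threshold. Of 55 other Notch pathway genes listed by role, 55 had a probe and 54 were tested by their brightest probe. None rose, none fell and 54 did not pass (limma adjusted over all tested probes, background 0.256%). Of these 54, 1 had an unadjusted p under 0.05, against 8.97% of all tested probes. The median log2 difference was 0.03, with 31 positive and 23 negative.

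Among further ligands, Dlk1, a non-canonical Delta-like protein, had a log2 difference of 0.11 (SE 0.15). Dll3, a Delta-like protein that does not activate Notch on neighbouring cells, was well above background on 2 WT and 1 Glis3KO2 arrays and was not tested. Of the genes that cut or trim the receptor, Adam10 (0.02) and Adam17 (-0.09), which shed its outer part, and Ncstn (0.21), a subunit of gamma-secretase, had the log2 differences given here, none past the threshold. Mib1, a ubiquitin ligase needed to internalise ligands, was 0.13 by its brightest probe, and its further probes disagreed in sign, at 0.23 (limma adjusted p = 0.614) and -0.31 (adjusted p = 0.529). Over all 82 tested probes of the listed genes, groups did not overlap for 3, against 5.20% of all tested probes. The 3 were the last of these Mib1 probes, a dimmer probe of Aph1a (0.23) and the brightest of Sox9.

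Of the receptor-modifying glycosyltransferases, Mfng had the largest negative difference of all listed pathway genes. Its log2 values were 0.48, 0.04, 0.02 and 0.37 in WT and -0.0088, 0.19, -0.44 and -0.43 in Glis3KO2. Glis3KO2 replicates 3 and 4 were low, as they were for Dll4, and replicate 2 lay within the WT range. The log2 difference was -0.40 (SE 0.18, 95% interval -0.80 to 0.0042, limma adjusted p = 0.561), and it was -0.14 without Glis3KO2 replicates 3 and 4. Lfng, the related fringe enzyme, was 0.08 (SE 0.13), and Pofut1, which adds the fucose that fringe enzymes extend, -0.15 (SE 0.12).

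In the nuclear complex, Rbpj, the DNA-binding partner of Notch, had a log2 difference of 0.08 (SE 0.20, limma adjusted p = 0.945). Rbpjl, its acinar relative, was -0.09 (SE 0.12), Ptf1a, the acinar factor that binds either of them, -0.14 (SE 0.19), and the co-activator Maml1 0.05 (SE 0.13). Of the inhibitors, Numb was 0.14 (SE 0.17), Dtx1 0.28 (SE 0.19) and Nrarp, a feedback inhibitor that Notch itself induces, -0.23 (SE 0.18). For Nrarp the Glis3KO2 values were -1.85, -1.19, -1.08 and -1.18 against -1.27 to -0.88 in WT, so that replicate 1 alone lay below the WT range.

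Of 9 other genes of the Hes and Hey family, 0 passed the threshold, with log2 differences of -0.11 to 0.36 and a median of 0.0090. Hes5 had a log2 difference of -0.11 (SE 0.13), Hes6, which opposes Hes1, 0.0090 (SE 0.10), Hey2 -0.06 (SE 0.18) and Heyl 0.10 (SE 0.11). The highest, Hes3, was 0.36 (SE 0.26, 95% interval -0.23 to 0.95), with -3.45 on Glis3KO2 replicate 1 against -4.66 to -4.43 on the others and -4.91 to -4.45 in WT. Among genes that Hes1 or Notch are known to govern in the developing pancreas, Neurog3 was -0.09 (SE 0.13). Sox9, a duct and progenitor factor, had log2 values of 2.53, 2.61, 2.53 and 2.30 in WT and 1.90, 1.99, 2.30 and 2.28 in Glis3KO2. WT replicate 4 and Glis3KO2 replicate 3 nearly met, and no Glis3KO2 array reached the WT range. The log2 difference was -0.38 (SE 0.13, limma adjusted p = 0.431), not past the threshold. Its further probes were -0.24 and -0.08.

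**Figure D5:**
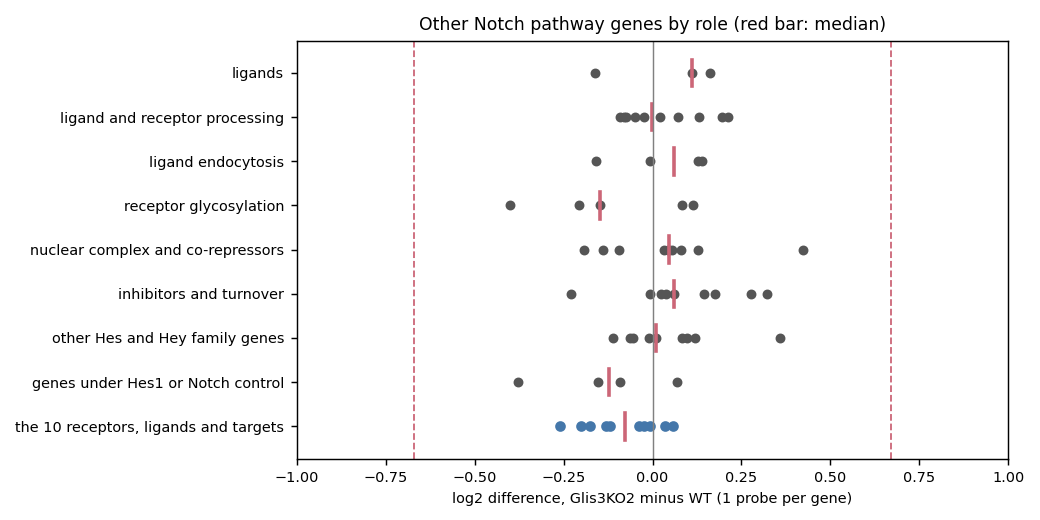
Log2 difference of Glis3KO2 minus WT (horizontal axis) for 54 other Notch pathway genes grouped by role and, in blue, for the 10 receptors, ligands and targets, 1 probe per gene. Red bars mark medians, and all points lie inside the dashed lines at ±0.67, the smallest absolute difference past the threshold.

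Promoter sequence was available from RefSeq (GRCm38.p6) for 8 of the 10 genes, as windows of 300 bases from 250 before to 50 after the gene's start. These were the receptors and ligands. The targets Hes1 and Hey1 had no window and were not searched. The letters TGGGAA, the core bound by Rbpj, were searched on both strands and were found in 0 of 9 windows of these 8 genes, against 25.6% of 32851 windows of all genes. The letters TGGGGGGT, the core that Glis proteins are known to bind, were searched likewise and were found in 1 of the 9 windows, that of Notch4, against 1.53% of all windows. The Notch4 window is shown because it holds 2 such matches and Notch4 was the member whose groups did not overlap. It covers the 250 bases before the start on the plus strand, chr17:34564045-34564294 (GRCm38.p6), and the capitals mark both matches, which lie on the opposite strand and begin 148 and 37 bases before the start.
Notch4: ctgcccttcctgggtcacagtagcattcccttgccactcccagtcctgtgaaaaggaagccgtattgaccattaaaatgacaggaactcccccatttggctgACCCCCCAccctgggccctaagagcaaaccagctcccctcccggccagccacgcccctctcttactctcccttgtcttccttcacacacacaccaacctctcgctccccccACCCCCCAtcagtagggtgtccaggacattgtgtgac
A match is a description of letters in this window, and the Notch4 difference itself did not pass the threshold.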

How the data were processed

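Total RNA, 500 ng per sample, was labelled with Cy3 and hybridised to 1-colour Agilent mouse arrays, per the labels' protocols. The deposited values are linear spot intensity values from Agilent Feature Extraction 9.5.3.1, per the file headers (9.5 per the submitters' processing notes), with background removed and detrended within an array and not scaled between arrays. The deposited series table held the same intensity for all 45018 spots on every array. Here, each array was scaled to the 75th percentile of its processed signal and log2 was taken. Outlier spots (56 to 130 per array) were dropped, repeated spots were averaged, and none was saturated. Probes well above background on at least 4 of 8 arrays were tested, 33239 of 41174, of which 44 lacked a value on 1 or more arrays (no member among them). Genotypes were compared with limma 3.58.1 in R 4.3.3 (2-sided, Benjamini-Hochberg over all tested probes, threshold 0.05), checked on simulated data. Listed genes were read from their brightest probe. Symbols were updated through the RefSeq gene table by accession, which matched 22951 of 25510 probes with one.

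Members, lists and tests were chosen with earlier results of these data known. The rule for names was every member probe, a fixed set of pathway genes (2 of them are not reported here), any other Notch pathway gene past the threshold (none was), and, for the 3 members with the largest differences, the 3 genes of most like profile. Hes3, the further probes of Sox9, Mib1 and Aph1a, the named islet markers and the motifs were chosen after values were seen. Alternatives covered background correction, scaling, filters, the deposited table, a block for the replicate number, the eBayes settings, array weights and arrays left out. Leaving out Glis3KO2 replicates 3 and 4 together was added. Slide could not serve as a block, since each held 1 genotype.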

Additional observations from a re-analysis of the deposited data

Results flagged for a closer look

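Of 92 sets of 4 values (a named probe or a marker list in 1 genotype), 5 had 1 array far from the other 3 by Dixon's criterion. Chance alone gives about 1 in 20. For Notch4 this was Glis3KO2 replicate 4, at a log2 value of 0.51 against 0.68 to 0.70 on the other Glis3KO2 arrays. For Adam10 it was WT replicate 3, at -2.84 against -3.18 to -3.16. For Nrarp it was Glis3KO2 replicate 1, at -1.85 against -1.19 to -1.08. For Hes6 it was WT replicate 2, at 2.0 against 1.76 to 1.78. For Heyl it was Glis3KO2 replicate 1, at 2.36 against 2.08 to 2.12. Adam10 and Hes6 were flagged in WT, and the other 3 in Glis3KO2.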

How the results depend on the processing

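No Notch member probe and no other pathway gene passed the threshold under any of the 18 alternatives, nor the latter with probes averaged per gene, and the smallest adjusted p of a member was 0.415. The count over all tested probes was 85; it was 51 with no filter on dim probes, 143 with trended, robust eBayes, 15 with the replicate number as a block, 11 without Glis3KO2 replicates 3 and 4 (chosen after seeing the data), and 35 (without WT replicate 3) to 96 (without Glis3KO2 replicate 1) with 1 array left out. It was 36 without WT replicate 1 or 4 and 39 without Glis3KO2 replicate 3 or 4. The cause was not tested. Same-numbered arrays correlated by 0.129, 0.0893, 0.237 and -0.04, not all above 0.1, so the numbers were not taken to pair the samples; 3 of 4 WT arrays (all but replicate 4) correlated best with their own number, a hint from the data and not from the design. Log2 differences that changed sign were, with normexp background, Notch2 probe 2 -7.94e-04, Adam10 -0.052, Ncstn -0.0031 and Hes6 -0.0036; with quantile normalization, Hes6 -0.0052; with median scaling, Dll1 0.0023 and Hes1 0.019; with array weights, Notch3 -0.0099, Hes1 0.047 and Hes6 -0.015. Without Glis3KO2 replicates 3 and 4 they were Dll1 0.057, Dll4 0.088, Jag1 probe 2 0.16, Adam10 -0.0051, Mib1 -0.069, Lfng -0.13, Pofut1 0.019, Maml1 -0.034, Hes5 0.0065 and Hey2 0.062. With 1 array left out, signs turned for Notch2 probe 1 (-0.025 to 0.16), Notch2 probe 2 (-0.0074 to 0.16), Notch3 (-0.0057 to 0.095), Dll1 (-0.091 to 0.016), Jag1 probe 2 (-0.26 to 0.051), Jag2 (-0.12 to 0.045), Hes1 (-0.081 to 0.084), Adam10 (-0.012 to 0.10), Rbpj (-0.055 to 0.21), Maml1 (-0.0071 to 0.16), Numb (-0.0093 to 0.27), Hes6 (-0.027 to 0.067), Hey2 (-0.14 to 0.10) and Neurog3 (-0.16 to 0.011). Limits are 4 arrays per genotype, 1 slide per genotype, and 1 probe for each of 7 members.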
